A study of Sus scrofa with 14 samples.

Results

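The account concerns 7 genes of blood vessel growth and tone in pregnant pig uterus: the secreted factors VEGFA, ADM and EDN1, the receptors KDR and FGFR1, the endothelial adhesion molecule PECAM1 and the matrix protein THBS2. They were represented by 13 of 23999 probe sets, taken as all probe sets whose only symbol in the platform annotation was one of the 7, and the genes are 7 of 6765 with a symbol of their own. Transcript levels were measured in uterus of 14 sows of an Iberian x Meishan F2 cross, which mixes a Spanish and a Chinese breed, with 1 Affymetrix porcine array each. All sows were in the fifth pregnancy and were slaughtered between days 30 and 32 of it; 5 were classed by the labels as of high and 9 as of low prolificacy, and no treatment was given. The labels do not say which layer of the uterine wall was sampled. The 7 genes were chosen by their measured log2 difference between these same groups, so their differences between groups are given below as description. How many of their probe sets met the threshold of the fit over all probe sets is stated once and supports nothing; the results tested are relations inside the low group and other genes.

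Vascular endothelial growth factor A, encoded by VEGFA, is secreted by many cells under low oxygen and binds KDR and FLT1 on endothelial cells, where KDR carries most of the growth signal. Adrenomedullin (ADM) widens vessels through the receptor CALCRL with a RAMP partner, and endothelin-1 (EDN1) narrows them through EDNRA. Thrombospondin-2 (THBS2) restrains vessel growth, FGFR1 is a receptor for fibroblast growth factors that mesenchymal cells carry, and PECAM1 joins endothelial cells to each other. In the pig, whose placenta does not invade the uterine wall, the vessels beneath the uterine epithelium grow during early pregnancy.

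Levels are on the log2 scale, where a step of 1 is a 2-fold change. Each difference is the mean of high less the mean of low prolificacy, and a negative one is lower in high. Array medians lay between 5.73 and 5.84, and no detection calls were used, so a dim probe set cannot be placed above or below background. The makeup of the samples moved with the groups. The mean of 19 smooth muscle genes, each centred on its own mean over the 14 arrays, averaged -2.06 ± 1.15 (SD) over the 5 high arrays and 1.15 ± 0.39 (SD) over the 9 low arrays. The mean of 18 epithelium genes averaged 1.21 ± 0.42 (SD) and -0.67 ± 1.00 (SD) over the same arrays. Of these, 17 smooth muscle genes fell and 10 epithelium genes rose in limma, where 5.42% of all 6765 genes fell and 5.34% rose. Among markers of other cells, 2 of 3 lymphatic endothelium genes, 1 of 5 pericyte genes and 5 of 12 stromal fibroblast genes fell, and 1 stromal fibroblast gene rose. Of the leukocyte genes 1 of 14 rose, while 0 of 10 trophoblast and 0 of 4 red cell genes were called. The lymphatic mean averaged -1.38 ± 1.04 (SD) over the high and 0.77 ± 0.37 (SD) over the low arrays, the pericyte mean -0.76 ± 0.57 (SD) and 0.42 ± 0.30 (SD), and the stromal fibroblast mean -0.64 ± 0.72 (SD) and 0.36 ± 0.44 (SD). The part of these 3 lists in the differences of PECAM1, THBS2 and FGFR1 was not tested. The mean of 19 blood endothelium genes other than KDR and PECAM1 ranged from -0.91 to 0.43 in high and from -0.33 to 0.66 in low prolificacy. Some arrays stood apart from their group. High 1 had a smooth muscle mean of -0.10 against at most -2.24 in the other high arrays, high 4 had a trophoblast mean of 3.40 against at most 0.99 in any other array, and low 7 and low 9 had epithelium means of -2.49 and -2.21 against at least -0.86 in the other low arrays. In whole tissue, fewer cells of a type and less RNA per cell cannot be told apart.

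Among the secreted factors, ADM differed the most between the groups. Its levels in high 1 to high 5 were 10.06, 10.64, 12.14, 9.93 and 10.92, and in low prolificacy they ran from 6.99 through a median of 8.39 to 9.32. Every high array lay above every low array, and the difference was 2.42 ± 0.48 (SE), or 5.35-fold. VEGFA stood at 9.56, 10.17, 11.34, 9.64 and 8.66 in the high arrays and between 6.65 and 9.26, with a median of 8.48, in the low arrays. High 5 lay below low 1, low 4 and low 5, and the difference was 1.86 ± 0.51 (SE), or 3.62-fold. EDN1 stood at 6.98, 8.95, 9.45, 6.11 and 8.77 in the high arrays and between 5.20 and 7.33, with a median of 6.04, in the low arrays. Only high 2, high 3 and high 5 rose clear of the low range, while high 1 and high 4 lay within it. The EDN1 difference was 1.87 ± 0.49 (SE), or 3.66-fold.

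The 2 genes of the set known from endothelial cells, KDR and PECAM1, differed in opposite directions. Which cells carried KDR in these samples was not tested. KDR was measured at 5.59, 7.26, 8.69, 5.18 and 6.30 in high 1 to high 5 and between 4.45 and 5.47, with a median of 4.82, in low prolificacy. High 4 lay inside the low range, and all low values were under the array medians. The difference was 1.71 ± 0.44 (SE), or 3.27-fold, and the levels spread far more among the 5 high arrays (SD 1.41) than among the 9 low arrays (SD 0.32). PECAM1 stood at 8.12, 6.65, 7.14, 8.98 and 7.71 in the high arrays and between 8.33 and 9.32, with a median of 8.72, in the low arrays. High 4 alone lay within the low range and the other high arrays lay below it. The difference was -1.07 ± 0.30 (SE), which is 2.10-fold lower in high prolificacy, and it was -1.67 ± 0.26 (SE) without high 1, high 4, low 7 and low 9, arrays left out after the data were seen. High 3 and high 2, with the highest KDR levels, had the lowest PECAM1 levels, and high 4, with the highest PECAM1 level of the high arrays, had the lowest KDR level.

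FGFR1 and THBS2 were lower in high prolificacy. FGFR1 was at 7.10, 5.69, 5.07, 6.35 and 6.41 in the high arrays and between 6.53 and 8.44, with a median of 7.38, in the low arrays. Only high 1 reached the low range, and the difference was -1.44 ± 0.36 (SE), or 2.71-fold lower. THBS2 was at 6.95, 4.32, 4.99, 5.43 and 5.35 in the high arrays and between 6.53 and 8.46, with a median of 7.51, in the low arrays. High 1 again lay above the lowest low arrays, here low 2 and low 5, and the other high arrays lay below all low arrays. The THBS2 difference was -2.18 ± 0.39 (SE), or 4.53-fold lower. High 1 was also the high array with the highest smooth muscle mean.

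**Figure D1:**
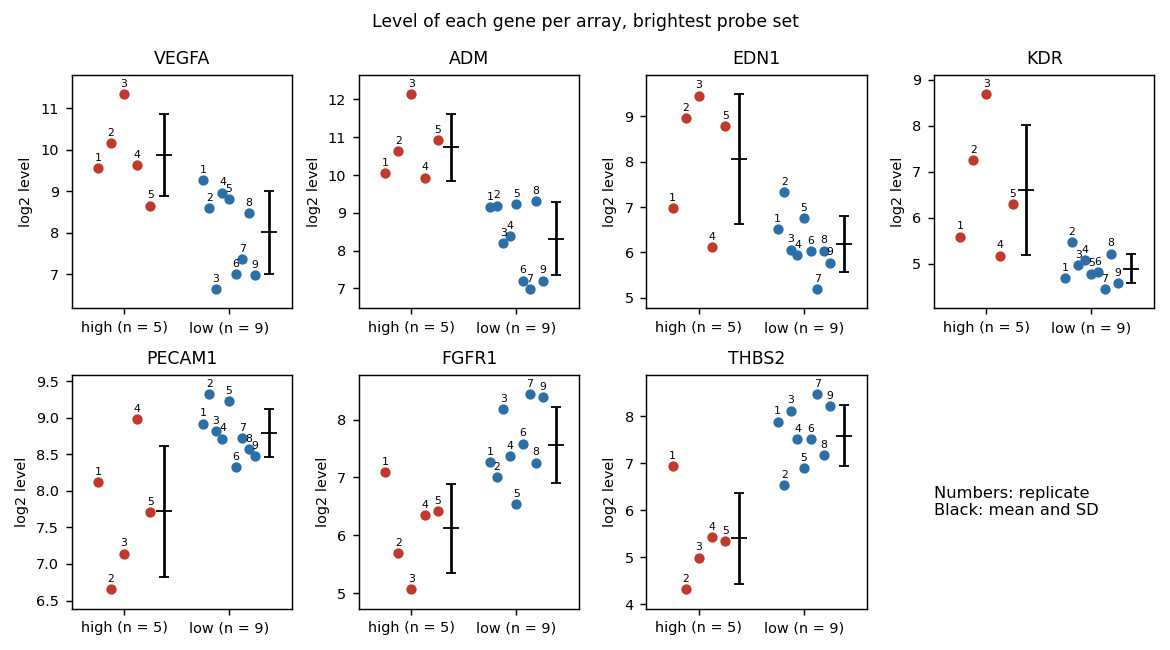
Log2 level of the brightest probe set of each gene in each array (vertical axis), with the 5 high prolificacy arrays in red, the 9 low prolificacy arrays in blue, the replicate number above each point and the group mean with its SD in black. All red points lie above all blue points for ADM; for EDN1 and KDR high 4 lies among the low arrays, and for PECAM1 high 4 does.

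Where a gene had more than 1 probe set, the sets did not always show the same difference. PECAM1's dimmer probe set differed by -1.06 ± 0.27 (SE), close to the brighter one, and both followed each other over the 14 arrays with the group means removed (r = 0.96, a description). FGFR1's dimmer set differed by -1.07 ± 0.34 (SE). One further VEGFA set, with high arrays between 7.11 and 9.49 and low arrays between 4.69 and 6.81, differed by 1.97 ± 0.43 (SE) without overlap and followed the brightest set (r = 0.88). Another VEGFA set, nearly as bright as the brightest with levels of 8.12 ± 0.91 (SD, n = 5) and 8.27 ± 0.31 (SD, n = 9), differed by -0.15 ± 0.30 (SE) and followed it less (r = 0.48). The dimmest VEGFA set and the dimmer KDR set, which averaged 2.94 and 3.11, differed by 0.14 and 0.25. The VEGFA and KDR differences hold for the named probe sets and not for every set of the gene.

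Of the 13 probe sets, 9 were under an adjusted p of 0.05 in limma, where 7.85% of all probe sets were. They comprised 5 higher and 4 lower, against 3.5% and 4.35% of all. In 2 of the 13 the groups did not overlap, where this held for 2.64% of all; both had high above low, as had 0.904% of all. Both counts follow from how the genes were picked. When 1 array at a time was left out, the 7 differences kept their direction, and each stayed within 1.5 times its value. KDR ran from 1.19 without high 3 to 2.06 without high 4, and PECAM1 from -1.38 without high 4 to -0.80 without high 2.

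The differences moved with the marker means. With the smooth muscle and epithelium means in the fit as covariates, the difference was 0.03 ± 1.12 (SE) for VEGFA, -0.23 ± 0.69 (SE) for ADM, -0.81 ± 0.93 (SE) for EDN1 and -0.68 ± 0.90 (SE) for KDR. It was 0.61 ± 0.56 (SE) for THBS2 and 0.93 ± 0.49 (SE) for FGFR1, so 5 of the 7 changed sign, and PECAM1 stood at -0.59 ± 0.78 (SE). Both means together explained 83.6% of the group variable, which left the standard errors wide. The blood endothelium mean explained 11.2% of it, and with this mean as the covariate PECAM1 stood at -0.70 ± 0.15 (SE), KDR at 1.43 ± 0.43 (SE) and VEGFA at 1.85 ± 0.56 (SE). The part of sample makeup in the differences cannot be told apart from that of the groups.

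**Figure D2:**
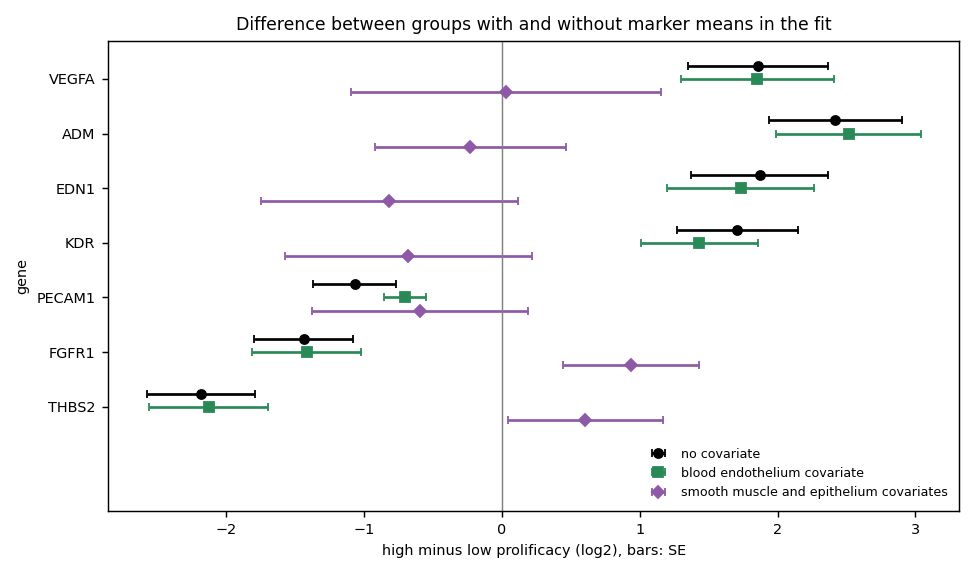
High minus low prolificacy difference of each gene in log2 units (horizontal axis) with its SE, fitted without a covariate (black), with the blood endothelium mean (green) and with the smooth muscle and epithelium means (purple). The green points stay on the side of the black ones, while the purple points of ADM, EDN1, KDR, FGFR1 and THBS2 lie on the other side of 0.

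The other genes of these pathways were examined to see whether the ligands and receptors beside the 7 differed too. The 10 lists of textbook genes, chosen with earlier results of these data known, held 78 further genes on the array, with 1 probe set each. Of these, 3 rose and 3 fell in limma, where 5.34% of all 6765 genes rose and 5.42% fell, or 10.8% together, and 72 were not called. An unadjusted p under 0.05 was found for 22 of the 78 and for 1814 of the 6765, so the share was near that over all genes. The median difference was -0.03, against 0.07 over all genes. The count depended on single arrays: it was 2 without high 2, 3 without high 3, low 6 or low 7, and 11 without high 1 or high 4. It was 16 without high 1, high 4, low 7 and low 9 together.

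The genes that fell were CAV1, THBS3 and NPR2. CAV1, the coat protein of caveolae in endothelium and muscle, stood at 12.21 ± 0.33 (SD, n = 9) in low and 9.81 ± 1.25 (SD, n = 5) in high prolificacy. The change was -2.40 ± 0.40 (SE), with a limma adjusted p of 0.0030. Its other probe sets differed by -2.75 and -3.49 and also passed. THBS3, a thrombospondin of another subgroup than THBS2, stood at 7.10 ± 0.55 (SD, n = 9) in low and 5.54 ± 0.36 (SD, n = 5) in high prolificacy without overlap (-1.56 ± 0.26 SE, limma adjusted p = 0.0030). One of its other probe sets passed as well (-1.45), and another did not (-0.036). NPR2, the receptor of C-type natriuretic peptide, changed by -1.04 ± 0.24 (SE), also without overlap, at a limma adjusted p of 0.014. High below low without overlap held for 1.74% of all probe sets. NPR2 lost the call without high 2 (0.055). With the smooth muscle and epithelium means as covariates none of the 3 was called: CAV1 stood at 0.18, THBS3 at -0.16 and NPR2 at -0.19, each with a limma adjusted p of 1.00. That fit called 0 of all probe sets, so the loss of these calls is not particular to CAV1, THBS3 and NPR2.

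The genes that rose were SLC2A1, HES1 and FGF9, and each lost its call when certain arrays were left out. SLC2A1, the glucose transporter that hypoxia-inducible factors switch on, differed by 1.69 ± 0.48 (SE, limma adjusted p = 0.043). Its adjusted p was above 0.05 without any one of high 2 to high 5, low 2, low 3 or low 6 to low 9, with a range from 0.015 to 0.13. HES1, a target of Notch receptors, differed by 1.03 ± 0.28 (SE, limma adjusted p = 0.035) and lost the call without high 2, high 3, high 5, low 4, low 6 or low 7. The growth factor FGF9 differed by 0.91 ± 0.24 (SE, limma adjusted p = 0.031) and lost it without high 2, high 3, high 5, low 6 or low 7. Without high 1, high 4, low 7 and low 9 together, SLC2A1 (limma adjusted p = 0.17) and FGF9 (0.068) lost it too. With the smooth muscle and epithelium means as covariates SLC2A1 stood at -0.017, HES1 at 0.17 and FGF9 at 0.36, each with a limma adjusted p of 1.00. That fit called 0 of all probe sets, so the loss of these calls is not particular to SLC2A1, HES1 and FGF9. Array weights ended the call of SLC2A1 (1.41, limma adjusted p = 0.093), and the blood endothelium covariate that of HES1 (1.01, limma adjusted p = 0.058).

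Of 19 partners, regulators and endothelial markers looked for, 17 were on the array under a symbol of their own. None of the 17 was called, where 10.8% of all 6765 genes were. With so few genes, this count is not read as a trait of the partners. FLT1, the other VEGFA receptor, differed by 0.06 ± 0.28 (SE), from 4.80 ± 0.64 (SD) over the 5 high arrays and 4.74 ± 0.48 (SD) over the 9 low arrays. Of the adrenomedullin receptor parts, CALCRL and RAMP3 differed by 0.18 and 0.01, and RAMP2 by -0.85 ± 0.28 (SE), with a limma adjusted p of 0.080. RAMP2 stood at 8.27 ± 0.78 (SD, n = 5) in high and at 9.13 ± 0.36 (SD, n = 9) in the low arrays. RAMP2 passed without high 1 (0.044), without high 4 (0.042), and at -1.37 (limma adjusted p = 0.015) without high 1, high 4, low 7 and low 9. Leaving out these arrays together was chosen after the data were seen. RAMP2 also passed with array weights (-1.14, limma adjusted p = 0.013) and with the blood endothelium covariate (-0.51, 0.041), while it stood at -0.071 with the smooth muscle and epithelium covariates. The endothelin receptors EDNRA and EDNRB differed by -0.36 ± 0.18 (SE) and -0.11 ± 0.46 (SE), and the endothelin-converting enzyme ECE1 by 0.43 ± 0.25 (SE). THBS1 differed by -1.12 ± 0.73 (SE) and the thrombospondin receptor CD47 by -0.06 ± 0.28 (SE). FGF2 and FGF7, ligands of the FGF receptors, differed by 0.05 and -0.37. The hypoxia factor HIF1A differed by -0.19 ± 0.38 (SE).

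In their brightest probe sets the endothelial markers CDH5, VWF and TEK had a lower mean in high prolificacy, as PECAM1 had, without a call. TIE1 (-0.39 to 0.014), ENG (-0.28 to 0.20) and FLT1 (-0.15 to 0.19) changed sign when 1 array was left out, so they show no direction. The junction cadherin CDH5 differed by -0.82 ± 0.35 (SE, limma adjusted p = 0.18), VWF by -0.44 ± 0.32 (SE), the angiopoietin receptor TEK by -0.41 ± 0.41 (SE), TIE1 by -0.19 ± 0.25 (SE) and ENG by -0.03 ± 0.40 (SE). Over the 19 blood endothelium genes other than KDR and PECAM1, 15 had a lower and 4 a higher mean in high prolificacy. The median was -0.31, 0 passed in limma in their brightest probe set and 4 had an unadjusted p under 0.05, against 1814 of all 6765 genes. A dimmer probe set fell for S1PR1 (-0.92, limma adjusted p = 0.047) and for ECSCR (-0.95, 0.026), whose brightest sets differed by -0.32 and -0.48. These 2 genes were named after their values were seen. Dimmer sets of TEK (0.12 and 0.13), VWF (0.21 and 0.02) and GATA2 (0.49) were higher in high prolificacy. Those of CDH5 (-0.60) and ESAM (-0.08 and -0.45) and a further S1PR1 set (-0.22) were lower, and none of these sets was called. Without high 1, high 4, low 7 and low 9, CDH5 and TEK passed, at -1.50 (limma adjusted p = 0.015) and -1.38 (0.017). In the blood endothelium mean, high 1 (0.03) and high 4 (0.43) lay above their group's average of -0.19. Low 7 (-0.10) and low 9 (-0.25) lay below theirs of 0.10. Leaving these arrays out, chosen after the data were seen, therefore widened the difference of this list, and the passes are no separate evidence. CDH5 also passed with array weights (-1.19, 0.041). In the hypoxia list, 10 of 12 genes had a higher mean in high prolificacy, with a median of 0.31, and only SLC2A1 passed. An unadjusted limma p under 0.05 was found for 5 of the 12. EPAS1 of this list, named after its value was seen, differed by 1.53 ± 0.47 (SE, limma adjusted p = 0.060). A higher mean was found for 4063 of all 6765 genes, and the list was not tested as a whole.

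**Figure D3:**
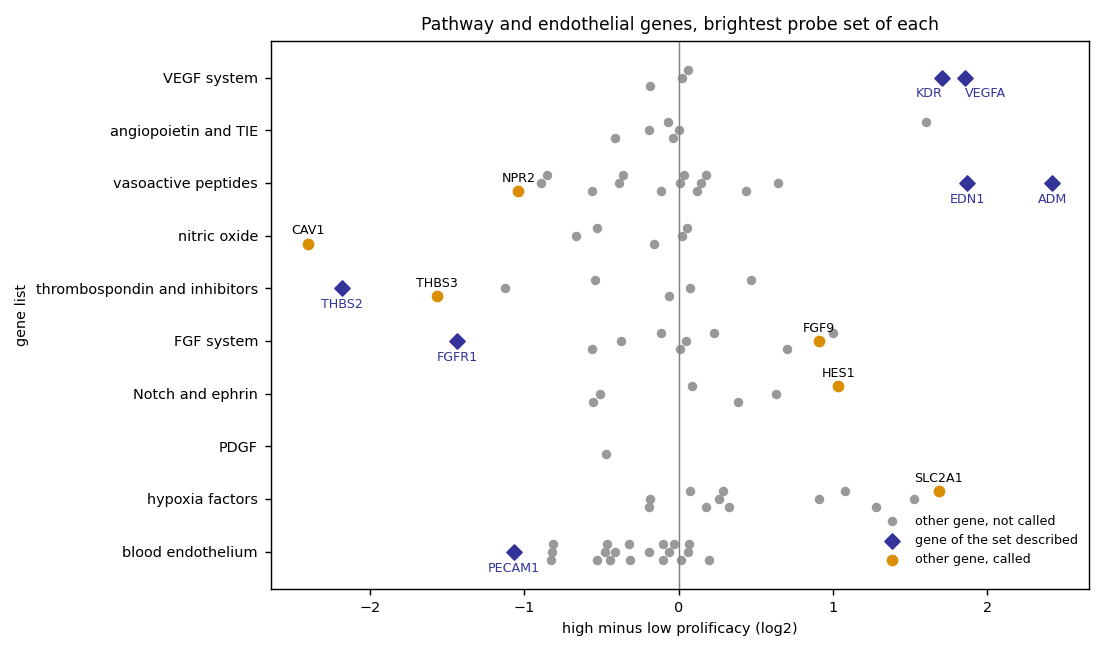
High minus low prolificacy difference in log2 units (horizontal axis) for the pathway and endothelial genes of each list, with 1 point per gene in its brightest probe set; blue diamonds are the 7 genes described, orange points are other genes past a limma adjusted p of 0.05 and grey points are the rest. Grey points surround 0 in most lists and the diamonds lie beyond 1 in either direction. This contrast follows from how the points were picked. The 7 genes were chosen by this same difference, and grey marks genes that were not called.

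Relations between the genes were tested inside the low prolificacy group, so the difference between groups did not enter the values. The choice of the 7 genes did rest on that difference. The smooth muscle and epithelium means, which moved with the groups, also varied among the low arrays, from 0.59 to 1.79 and from -2.49 to 0.28. How far the choice of genes shaped the relations was not tested. Pearson's r was computed for 42 relations over the 9 low arrays, namely the 21 pairs of the 7 genes and each gene against the smooth muscle, epithelium and blood endothelium means. Two-sided exact permutation tests were adjusted over the 42. Of these, 16 passed an adjusted p of 0.05, 8 of them between genes of the set, and 21 had an unadjusted p under 0.05. The share that would pass among other genes over the same arrays was not computed. The counts therefore cannot be read as a trait of these 7 genes. Over all 9 arrays VEGFA, ADM, EDN1, KDR and PECAM1 had positive r with each other, from 0.35 to 0.78, and negative r with both THBS2 and FGFR1, from -0.52 to -0.83. Most of these pairs did not pass, and not all signs held: PECAM1 against THBS2 went from -0.55 to 0.31 without low 2 and low 5, and KDR against PECAM1 reached -0.060 with 1 array left out.

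THBS2 and FGFR1 followed each other most closely of the pairs (r = 0.88, exact permutation p = 0.0024, adjusted p = 0.022; rho = 0.93, exact permutation p = 0.00075). With low 2 and low 7, farthest from the THBS2 median, left out, r was 0.89. Both also followed the smooth muscle mean, THBS2 with r = 0.86 (exact permutation p = 0.0035, adjusted p = 0.022; rho = 0.85, p = 0.0061) and FGFR1 with r = 0.86 (p = 0.0037, adjusted p = 0.022; rho = 0.95, p = 0.00035). Without the 2 farthest arrays these were 0.75 and 0.74. FGFR1 ran against the epithelium mean (r = -0.81, exact permutation p = 0.0052, adjusted p = 0.024; rho = -0.70, p = 0.043), with -0.50 without low 7 and low 9.

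ADM ran against the smooth muscle mean (r = -0.92, exact permutation p = 0.00060, adjusted p = 0.012; rho = -0.93, p = 0.00075), and r was -0.85 without low 7 and low 9. It followed the epithelium mean (r = 0.85, exact permutation p = 0.0025, adjusted p = 0.022; rho = 0.65, p = 0.067), with 0.78 without those arrays. EDN1 also ran against the smooth muscle mean (r = -0.86, exact permutation p = 0.0029, adjusted p = 0.022; rho = -0.92, p = 0.0013), with -0.75 without low 2 and low 7. Against FGFR1 the values were -0.82 for ADM (exact permutation p = 0.0095, adjusted p = 0.038; rho = -0.93, p = 0.00075) and -0.79 for EDN1 (p = 0.010, adjusted p = 0.038; rho = -0.83, p = 0.0083). Without the 2 farthest arrays they were -0.63 and -0.79. ADM and EDN1, a vessel-widening and a vessel-narrowing peptide, followed each other (r = 0.76, exact permutation p = 0.013, adjusted p = 0.041; rho = 0.75, p = 0.025), with 0.56 without low 7 and low 9. EDN1 ran against THBS2 with r = -0.83 (exact permutation p = 0.0052, adjusted p = 0.024; rho = -0.73, p = 0.031), and with -0.52 without low 2 and low 7.

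**Figure D4:**
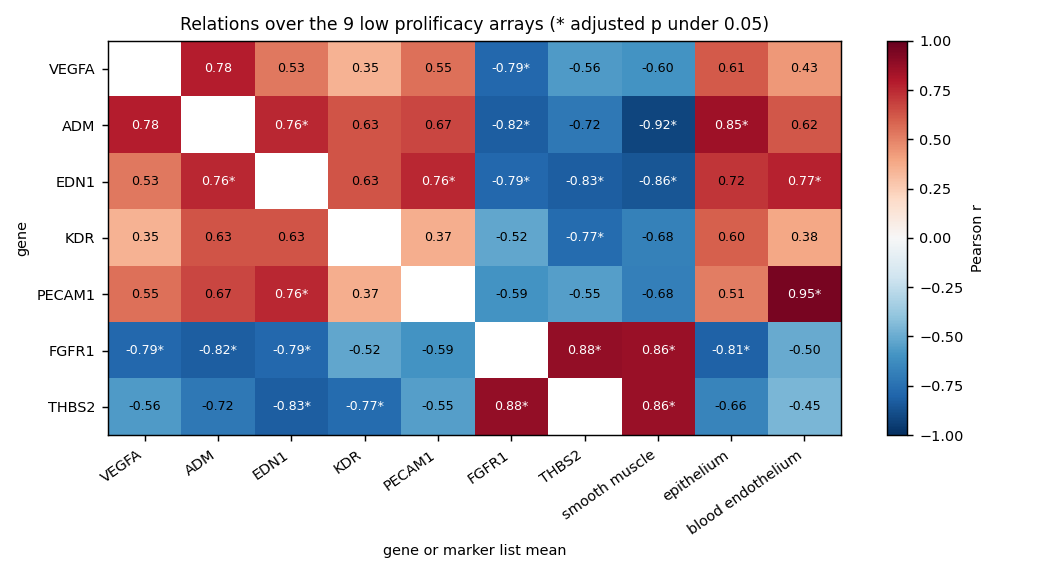
Pearson's r over the 9 low prolificacy arrays between the 7 genes (rows) and the same genes and 3 marker list means (columns), from -1 in blue to 1 in red, with a star where the exact permutation p adjusted over the 42 relations was under 0.05. THBS2, FGFR1 and the smooth muscle mean share the red block on the right, and ADM and EDN1 are blue against all of them.

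PECAM1 stood with the endothelial genes inside the low group. It followed the blood endothelium mean, from which it was left out, with r = 0.95 (exact permutation p = 2.2e-05, adjusted p = 0.00093; rho = 0.95, p = 0.00035), and r was 0.91 without low 2 and low 5. This was the relation that passed in every fit leaving out 1 low array. KDR had r = 0.38 with the same mean (exact permutation p = 0.30, adjusted p = 0.32; rho = 0.23, p = 0.55), and 0.37 with PECAM1 (p = 0.33, adjusted p = 0.34; rho = 0.18, p = 0.64). EDN1, which endothelial cells are known to make, followed the blood endothelium mean with r = 0.77 (exact permutation p = 0.012, adjusted p = 0.041; rho = 0.72, p = 0.037), or 0.74 without low 2 and low 7. EDN1 and PECAM1 had r = 0.76 (exact permutation p = 0.018, adjusted p = 0.048; rho = 0.75, p = 0.025), which rested on low 2 and low 5, since r was 0.24 without them. In this pair the relation inside the low group was positive, while between the groups EDN1 was higher and PECAM1 lower in high prolificacy.

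KDR and VEGFA, receptor and ligand, had r = 0.35 in the low group (exact permutation p = 0.36, adjusted p = 0.36; rho = 0.15, p = 0.71), where KDR spanned 4.45 to 5.47. KDR ran against THBS2 (r = -0.77, exact permutation p = 0.016, adjusted p = 0.048; rho = -0.77, p = 0.021), with -0.50 without low 2 and low 8. VEGFA ran against FGFR1 (r = -0.79, exact permutation p = 0.017, adjusted p = 0.048; rho = -0.63, p = 0.076), with -0.65 without low 3 and low 9. VEGFA and ADM had r = 0.78, past the threshold only before adjustment (exact permutation p = 0.022, adjusted p = 0.055; rho = 0.55, p = 0.13), and r was 0.85 without low 3 and low 9. The VEGFA relations hold for its brightest probe set. They were not tested in the nearly as bright set that differed by -0.15.

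The number of relations that passed depended on single arrays. With low 7 or low 9 left out, 2 of the 42 passed, with low 1 or low 4 left out 8, with low 5 left out 9 and with low 2 left out 10. Over the 7 arrays without low 7 and low 9, 0 passed and 8 had an unadjusted exact permutation p under 0.05, while 41 of the 42 kept the sign of r. The exception was KDR against the epithelium mean, at 0.60 over 9 arrays and -0.19 over 7. PECAM1 against the blood endothelium mean stood at 0.95 over these 7 (exact permutation adjusted p = 0.083) and THBS2 against FGFR1 at 0.78 (0.22).

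**Figure D5:**
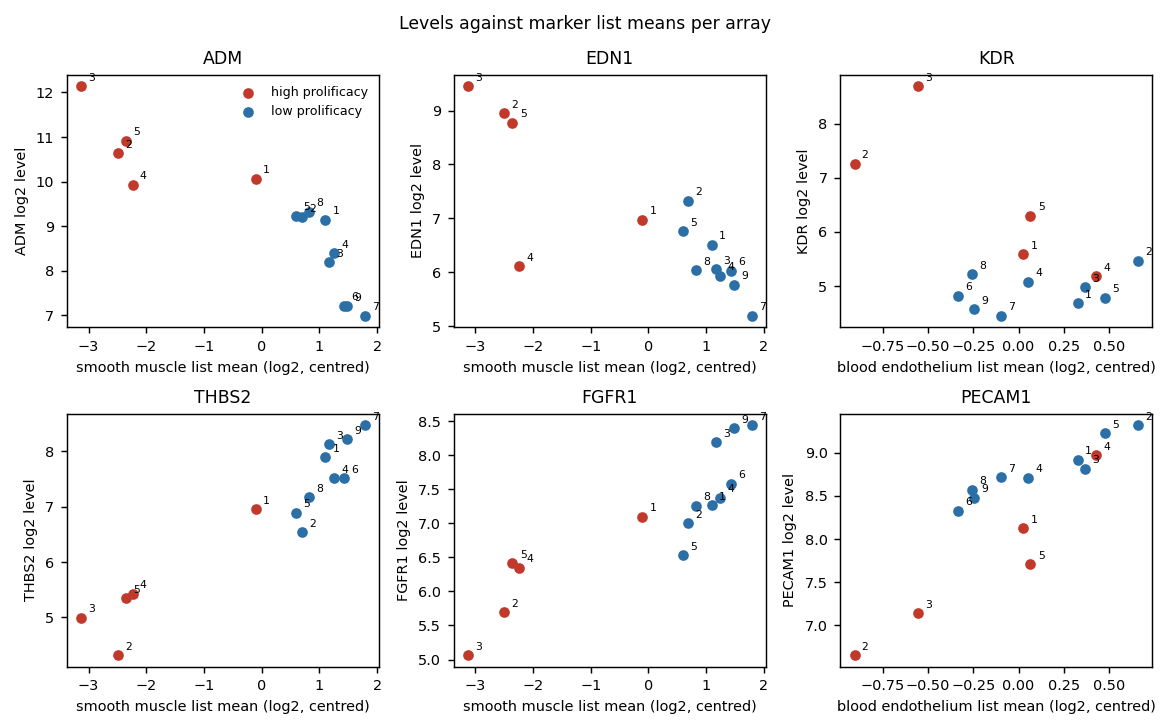
Log2 level of ADM, EDN1, THBS2 and FGFR1 against the smooth muscle list mean, and of KDR and PECAM1 against the blood endothelium list mean, per array (red high, blue low prolificacy, with replicate numbers). ADM falls and THBS2 and FGFR1 climb along the smooth muscle axis inside the blue points, EDN1 in high 4 sits apart from the other arrays of low smooth muscle mean, and PECAM1 climbs with the endothelium mean.

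The high group had 5 arrays, too few for a correlation, and its values are given as they stood. KDR and EDN1 ordered these arrays alike, with high 3 first, then high 2, high 5, high 1 and high 4. High 3 was also first for VEGFA and ADM and had the lowest smooth muscle mean, at -3.13. High 4 had a smooth muscle mean of -2.24, near that of high 5 at -2.36, yet its EDN1 level was 6.11 against 8.77 and its PECAM1 level 8.98 against 7.71. Its blood endothelium mean was 0.43, the highest of the high group, and high 2 and high 3 had the lowest, at -0.91 and -0.56. The trophoblast mean of high 4 stood at 3.40 beside these values, and its part in them was not tested.

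Genes whose pattern was most like each of the 7 were sought over the 14 arrays with each group's mean removed, among 6764 other genes, as a description. FGFR1 was most like AMOTL1 (r = 0.97), CHST10 (0.94) and PDLIM4 (0.93). THBS2 was most like PYGM (0.93), the muscle glycogen phosphorylase, AMOTL1 (0.90) and MYL9 (0.90), the light chain of smooth muscle myosin. PECAM1 was most like ISYNA1 (0.94), the endothelial junction protein ESAM (0.93) and DAB2 (0.93). ADM was most like MECOM, OSTF1 (both 0.90) and the kinase SGK1 (0.90), and VEGFA most like BAZ1A (0.91), PTPN2 (0.90) and RAB27B (0.90). KDR was most like LOC396711 (0.92), DAP3 (0.89) and FRMD4B (0.87), and EDN1 most like FRMD4B (0.92), TMEM170A (0.87) and B4GALT1 (0.86). No endothelial marker of the list was among the 3 genes most like KDR, while 1 was among those of PECAM1. KDR varied mostly among the 5 high arrays (SD 1.41, against 0.32 in low), so its likeness rests mainly on those few arrays.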

How the data were processed

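The authors deposited log2 levels, 1 per probe set and array. The submitters' processing notes name RMA, with no version given in the sources used here. That method equalises probe intensities between arrays, so a shift shared by most transcripts would be removed. Of 24123 probe sets, 124 controls were left out and 23999 tested. Symbols came from the platform annotation, in which 10069 probe sets had 1 symbol, 198 several and 13732 none; 9961 were found by gene number in the table of assembly Sscrofa11.1 and 0 changed. A gene was its brightest probe set unless stated. High minus low was fitted with limma 3.58.1 in R 4.3.3 (lmFit, eBayes, no covariate), with Benjamini-Hochberg adjustment over all probe sets. SE is limma's moderated standard error.

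Within-group relations used exact permutation over all 362880 pairings. The highest correlation between 2 arrays was 0.983, and none were identical. The labels call samples biological replicates and give no batch. Precision is limited by how many arrays there were. On simulated data with 200 changed probe sets among 23999, the high minus low fit found 62% of those changed by 1 log2 unit and 94% of those changed by 2, with 7 false calls among 142. The simulated noise was independent between probe sets, whereas sample makeup moved many probe sets together in the real arrays. These rates need not hold for the real data.

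Genes named beside the 7 were 19 fixed partners, the gene of smallest p in each direction of each of 10 lists among those called, and the 3 most alike. The members and lists were chosen with earlier results of these data known. Alternatives were other normalization (cyclic loess, array medians subtracted), the 12000 brightest probe sets, array weights, trend and robust eBayes, a block for the replicate number, marker means as covariates, an adjusted p of 0.10, Spearman's rho, other probe sets and leaving out each array. Other probe sets served for the differences only and not for the relations. Leaving out high 1, high 4, low 7 and low 9, or low 7 and low 9, was added after the data were seen.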

Additional observations from a re-analysis of the deposited data

Results flagged for a closer look

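Among 32 groups of values, those of the 13 probe sets and of the smooth muscle, epithelium and blood endothelium means in each group, 2 held an array set apart from the others of its group by Dixon's criterion, which chance alone meets in about 1 group in 20. In the VEGFA probe set that differed without overlap, high 3 stood at 9.49 while the other high arrays lay between 7.11 and 7.55. In the dimmer FGFR1 probe set, low 7 stood at 7.69 while the other low arrays reached at most 6.42.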

How the results depend on the processing

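The count of probe sets called, 1885, was 2925 at an adjusted p of 0.10, 3060 with array weights, 35 with the replicate block and 0 with the smooth muscle and epithelium covariates (288 at an unadjusted limma p under 0.05), and 944 to 2650 when 1 array was left out (944 without high 3, 1002 without high 2). The 6 pathway genes called became 12, 16, 0 (19 unadjusted) and 0 (1 unadjusted) under the same settings, 2 to 11 when 1 array was left out, and 16 without the arrays that stood apart. The labels do not say whether the replicate numbers pair the sows. Of 5 same-numbered pairs, 3 correlated over 0.1, and only high 4 correlated best with its own number, which cannot settle it. Low 6 to low 9 share no number with a high array, so they add nothing to the difference in the block fit. The 16 relations called in the low group became 9 with array medians subtracted, 9 by Spearman's rho, 2 to 16 when 1 low array was left out, and 0 without low 7 and low 9; all 16 kept their sign when 1 low array was left out. With the smooth muscle and epithelium covariates KDR (-0.68), ADM (-0.23), EDN1 (-0.81), THBS2 (0.61) and FGFR1 (0.93) changed sign. So did FLT1 (-0.42), TEK (0.64), RAMP3 (-0.35), EDNRA (0.057), EDNRB (0.088), ECE1 (-0.041), CAV1 (0.18), THBS1 (0.54), CD47 (0.060), FGF2 (-0.28), FGF7 (0.29), HIF1A (0.098), SLC2A1 (-0.017) and ENG (0.11). With the blood endothelium covariate TIE1 (0.049), RAMP3 (-0.0061), EDNRB (0.31), CD47 (0.087), FGF2 (-0.021) and ENG (0.47) did. RAMP3 also changed sign with cyclic loess (-0.024), array weights (-0.029) and the replicate block (-0.036), and FLT1 with array weights (-0.30), the block (-0.31) and without the arrays that stood apart (-0.18), where CALCRL was at -0.047. One VEGFA probe set was at -0.15. When 1 array was left out, sign changes occurred within -0.15 to 0.19 for FLT1, -0.39 to 0.014 for TIE1, -0.084 to 0.098 for RAMP3, -0.29 to 0.11 for EDNRB, -0.40 to 0.17 for CD47, -0.013 to 0.14 for FGF2, -0.38 to 0.20 for HIF1A and -0.28 to 0.20 for ENG. The cause of these changes was not tested. No pathway gene in this paragraph other than CAV1 and SLC2A1 was called.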
